A study of Homo sapiens with 6 samples.

Results

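TXNIP, the 4 other alpha-arrestin genes ARRDC1 to ARRDC4, the glucose-sensing transcription factor genes MLXIP and MLX, and the glucose transporter genes SLC2A1 and SLC2A3 were examined in an osteosarcoma cell line. These 9 genes were taken by symbol from a table of 62703 Ensembl gene IDs, each symbol matched 1 ID, and all 9 passed the filter on low values that left 12843 genes for testing. They were chosen by the change of TXNIP and its relatives between these same libraries, so their FPKM values and changes are given as a description, with no test. The cells were MNNG/HOS Cl #5, a human osteosarcoma line of wild-type genotype per the labels. One group of 3 libraries, called 3D, came from cells seeded within a scaffold of demineralized bone matrix, and the other group of 3, called 2D, came from cells cultured flat, both for 7 days. All cells were grown in high-glucose DMEM with added L-glutamine, fetal bovine serum and antibiotics. Nothing in the labels says whether the 3 libraries of a group came from separate cultures, so spread between them may be technical.

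Alpha-arrestins are adaptor proteins that recruit ubiquitin ligases of the NEDD4 family to membrane proteins and so direct their removal from the cell surface. TXNIP binds thioredoxin and, like ARRDC4, drives glucose transporters into the cell, so that it restrains glucose uptake. The TXNIP and ARRDC4 genes are textbook targets of MondoA, the protein of MLXIP, which enters the nucleus with its partner MLX when glucose 6-phosphate accumulates and binds carbohydrate response elements, made of a pair of E-box-like sites. SLC2A1 and SLC2A3 encode GLUT1 and GLUT3, and both genes are known targets of the hypoxia-inducible factors.

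The promoters of TXNIP and ARRDC4 are shown because these genes had the largest ratios between the groups among the 9. Both sequences are the 250 bases before the RefSeq transcript start on GRCh38.p14, read 5′ to 3′ on the gene's strand, TXNIP at chr1:145996580-145996829 on the minus strand and ARRDC4 at chr15:97960453-97960702 on the plus strand. Capitals mark CCAAT boxes on either strand in both genes, in TXNIP a paired element (CACGNG, any 5 bases, then CACGNG) and in ARRDC4 the E-box CACGTG.
TXNIP: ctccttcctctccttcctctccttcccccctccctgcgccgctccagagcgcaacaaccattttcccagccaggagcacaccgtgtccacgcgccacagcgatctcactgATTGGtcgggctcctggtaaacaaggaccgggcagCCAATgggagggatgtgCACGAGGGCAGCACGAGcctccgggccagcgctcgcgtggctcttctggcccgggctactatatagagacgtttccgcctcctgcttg
ARRDC4: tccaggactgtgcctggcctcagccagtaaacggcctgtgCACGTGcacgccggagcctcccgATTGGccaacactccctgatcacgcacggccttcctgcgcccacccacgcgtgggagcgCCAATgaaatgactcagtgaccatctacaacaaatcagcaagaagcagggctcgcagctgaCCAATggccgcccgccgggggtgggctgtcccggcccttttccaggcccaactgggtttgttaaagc
In TXNIP the paired element reads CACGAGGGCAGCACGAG and begins at position -88, where -1 is the base before the start, with CCAAT boxes at -140 and -105. In ARRDC4 the E-box begins at -210, and CCAAT boxes begin at -187, -128 and -67.

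Windows of 300 bases, from 250 before to 50 after each RefSeq start, were searched on both strands for 4 motifs. The paired element lay in 20 of 35116 windows (0.057%), and among the 8 members with a window it lay in TXNIP alone. Pairs whose second site is inverted or differs from CACGNG were not searched. CACGTG lay in 7.26% of windows and, among the members, in ARRDC4 and in MLX, where it begins at -50. ACGTG, a form of the core of the hypoxia response element and a part of CACGTG, lay in 21.4% of windows. Among the members it lay in ARRDC4, MLX and the second of 2 TXNIP windows. The other form of that core, GCGTG, was not searched. CCAAT lay in 34.6% of windows and in at least 1 window of each of the 8 members. These matches describe letters in short windows, and SLC2A3 had no window.

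Levels are in FPKM, fragment counts scaled to gene length and library size, as the authors deposited them, and values after ± are SDs over 3 libraries. The lengths behind the FPKM values were worked out, and with them the reads (13382626 to 16422104 in total per library by the same factors). Libraries correlated at 0.968 to 0.981 within groups and 0.886 to 0.920 between groups over the tested genes, a correlation across genes. With limma on log2(FPKM + 1), 51.4% of all tested genes passed an adjusted p under 0.05, 33.3% higher and 18.1% lower in 3D, and the median log2 change over all of them was 0.14. The median log2 change of the 9 members was -0.79. The libraries of the groups did not overlap for 6 members lower in 3D and for 1 higher in 3D, against 21.9% and 39.0% of all tested genes (60.9% in either direction). The choice of the genes used this contrast, so nothing is read from these counts. Median-ratio scaling moved the median change of all tested genes from 0.144 to 0.007. At that setting 3148 of the 12843 tested genes were called higher and 3148 lower. List counts given below for median-ratio scaling stand beside those numbers, not beside 33.3% and 18.1%. In a mixed population less RNA per cell and fewer cells of a kind cannot be told apart.

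Of 7 markers of osteosarcoma or the osteoblast lineage, COL1A1, SPARC and MET passed the filter. MET stood at 21.1 ± 1.07 in 3D and 19.5 ± 1.16 in 2D. COL1A1, a main collagen of bone, rose from 8.28 ± 1.61 to 43.7 ± 6.75 (limma adjusted p = 0.000267). SPARC stood at 51.7 ± 4.19 in 3D and 56.1 ± 5.6 in 2D and did not pass (adjusted p = 0.432). SPP1, under the filter, was at 1.4 ± 0.821 in 3D and 0.302 ± 0.0891 in 2D, without overlap. RUNX2 (2.19 ± 1.39 against 0.648 ± 0.265) and COL1A2 (1.24 ± 1.06 against 0.217 ± 0.0831), also under the filter, overlapped between the groups. ALPL, a defining osteoblast enzyme, was at or near 0 in every library (0 to 0.0475 FPKM). Markers of cells that a bone scaffold might still hold, 14 genes of vessel, blood, fat, bone and cartilage cells, summed to 6.46 to 7.97 FPKM in the 3D libraries and 19.5 to 32.8 in the 2D libraries. CDH5 and ADIPOQ, which define endothelial and fat cells, were listed at 0 in all 6 libraries. CD68, HBB and LYZ passed the filter, and CD68, which also marks lysosomes of other cells, made up much of the 2D sum, at 19.1 ± 2.73 against 3.42 ± 0.93 in 3D. Below the filter, some markers were higher in 3D: VWF, of endothelial cells, at 0.0784 ± 0.011 against 0.0345 ± 0.00555 and COL2A1, of cartilage, at 0.865 ± 0.14 against 0.395 ± 0.117, both without overlap. ACAN, of cartilage, was at 0.0544 to 0.568 FPKM in 3D and 0.049 to 0.116 in 2D, and SOST, of osteocytes, at 0 to 0.0651 in 3D and 0 in every 2D library. The part of these markers in the results was not tested.

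TXNIP (ENSG00000265972, chromosome 1, 145992435 to 145996600, minus strand, GRCh38 with GENCODE 29, as are all gene positions here) was among the most abundant mRNAs in 2D and near the middle of the tested genes in 3D. The 2D libraries, in replicate order, held 139.8, 111.3 and 180.5 FPKM and the 3D libraries 2.96, 2.76 and 3.83. The groups were far apart, and the 3D libraries lay close together. Behind these values were 8125 to 13745 reads in a 2D library and 203 to 335 in a 3D library. The group means were 143.8 ± 34.8 and 3.18 ± 0.568, so the level in 3D was 97.8% lower, and leaving out each library in turn gave 39.5-fold to 50.3-fold lower. In 2D, TXNIP stood above 98.5% of the tested genes by mean FPKM, and in 3D above 42.2%. Its log2 change of -5.10 (SE 0.19) was the lowest of all 12843 tested genes. No other GENCODE 29 gene overlaps its span. The neighbouring gene POLR3GL, which encodes a subunit of RNA polymerase III, also fell, by 0.76 on the log2 scale (limma adjusted p = 0.00204), from 14.6 ± 1.83 to 8.17 ± 0.723 FPKM.

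**Figure D1:**
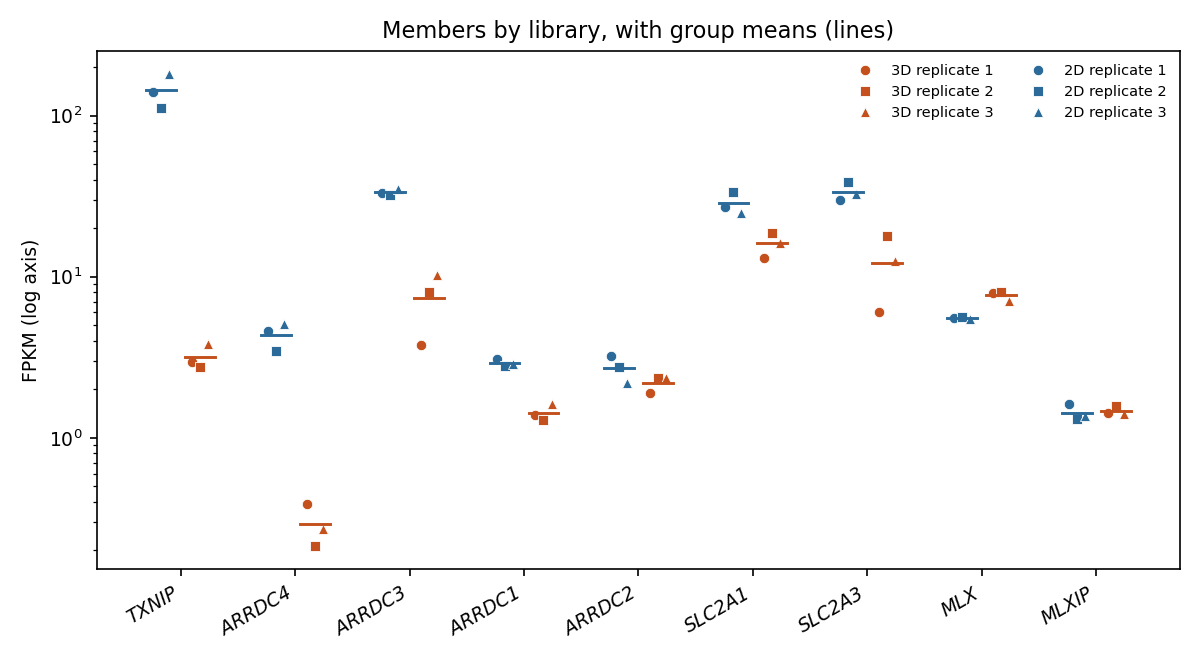
FPKM of the 9 genes in each library on a log axis, with 2D in blue, 3D in orange, a symbol for each replicate and a line at each group mean. TXNIP lies between 111.3 and 180.5 in 2D and between 2.76 and 3.83 in 3D, whereas ARRDC2 and MLXIP overlap between the groups.

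ARRDC4 (ENSG00000140450, chromosome 15, 97960698 to 97973838, plus strand), the closest functional relative of TXNIP in glucose transporter control, had the second largest ratio among the 9. In replicate order it had 4.58, 3.45 and 5.07 FPKM in 2D, and 0.386, 0.214 and 0.27 in 3D. The groups did not overlap, and the order of the 2D libraries was the same as for TXNIP, with replicate 3 highest and replicate 2 lowest. Only 12 to 21 reads per 3D library lie behind the low values, against 192 to 294 in 2D, so counting error is large in 3D. By the ratio of means (0.29 ± 0.0879 against 4.37 ± 0.828) ARRDC4 was 15-fold lower, and 13.3-fold to 18-fold lower when each library was left out in turn. On the log2(FPKM + 1) scale the change was -2.05 (SE 0.13), and it was -3.52 with a pseudocount of 0.1, or -3.90 when voom was run on reads worked out from the FPKM. ARRDC4 passed the filter through its 2D libraries alone. No other GENCODE 29 gene overlaps it.

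ARRDC3 (ENSG00000113369, chromosome 5, 91368724 to 91383359, minus strand), an adaptor for ubiquitination of membrane proteins such as integrin beta 4, was the second most abundant alpha-arrestin in 2D and the most abundant in 3D. In 2D it was steady at 33.2, 32 and 35.1 FPKM, and in 3D it was at 3.79, 8 and 10.3, both in replicate order. The groups did not overlap, but the 3D libraries differed by 2.71-fold among themselves, with replicate 1 the lowest. The mean fell from 33.4 ± 1.59 to 7.35 ± 3.29 FPKM, which is 4.55-fold lower, and 3.66-fold lower without 3D replicate 1. The antisense gene ARRDC3-AS1, whose span overlaps it on the other strand, was at 0.0501 to 0.0974 FPKM in 3D and 0.0096 to 0.015 in 2D, on at most 19 reads. ITGB4, the integrin cargo, fell from 2.2 ± 0.224 to 0.608 ± 0.238 FPKM (limma adjusted p = 0.00107), and passed the filter through 2D alone.

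ARRDC1 and ARRDC2 were low throughout. ARRDC1 (ENSG00000197070, chromosome 9, 137605654 to 137615360, plus strand), which buds vesicles from the plasma membrane with the ESCRT protein TSG101, was at 3.1, 2.77 and 2.88 FPKM in 2D and 1.39, 1.29 and 1.61 in 3D, in replicate order. The groups did not overlap and the mean was 2.04-fold lower in 3D (1.43 ± 0.163 against 2.91 ± 0.166). Its log2 change was -0.69 (SE 0.09) at a pseudocount of 1 and -0.98 at 0.1. ARRDC1-AS1, an antisense gene that overlaps the 3′ end of its span, went the other way, from 2.19 ± 0.14 to 3.39 ± 0.466 FPKM (limma adjusted p = 0.0109). In GENCODE 29 the spans share only positions 137615332 to 137615360. No source used here says that counting used strand, so reads in the overlap cannot be told apart. AL590627.2, a noncoding gene on the same strand whose span covers most of ARRDC1, was at 0.216 to 0.514 FPKM. ARRDC2 (ENSG00000105643, chromosome 19, 18001132 to 18014102, plus strand), the least studied of the family, was at 3.21, 2.76 and 2.2 in 2D and 1.91, 2.34 and 2.34 in 3D. Here the groups overlapped, since 2D replicate 3 lay below 3D replicates 2 and 3, and the log2 change was -0.21 (SE 0.13). AC020904.3, which overlaps ARRDC2 on the other strand, was listed at 0 in 5 libraries and at 0.138 FPKM in 3D replicate 3. ARRDC5, the remaining family member, was listed at 0 in all 6 libraries.

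The 5 alpha-arrestins together shrank from 187.3 ± 36.9 to 14.5 ± 3.94 summed FPKM, 13-fold lower in 3D, with no overlap. Their makeup differed as well. TXNIP gave 73.1 to 79.9% of the sum in each 2D library and 18.9 to 28.3% in each 3D library, and ARRDC3 gave 15.6 to 21% in 2D and 36.3 to 56.1% in 3D. Without TXNIP the other 4 summed to 43.4 ± 2.21 in 2D and 11.3 ± 3.54 in 3D. TXNIP stood at 30.5 to 35.6 times ARRDC4 in 2D and 7.66 to 14.2 times in 3D. Against ARRDC3 it was at 3.48 to 5.13 times in 2D and below it, at 0.345 to 0.781 times, in 3D.

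**Figure D2:**
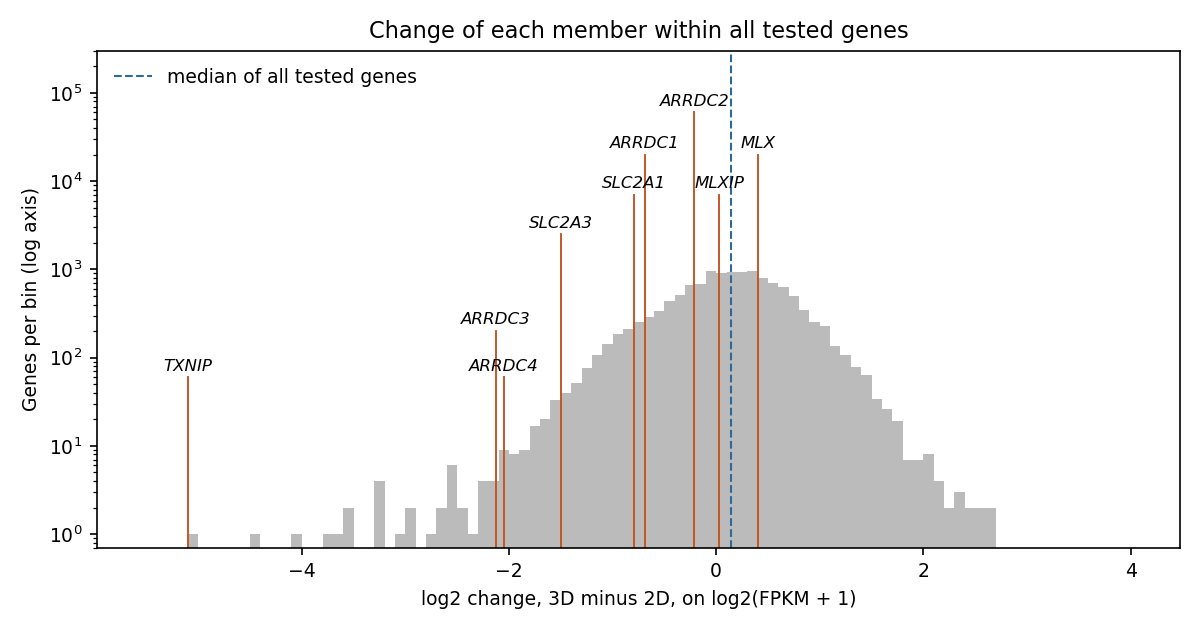
Histogram of the log2 change, 3D minus 2D, on log2(FPKM + 1), for all 12843 tested genes on a log count axis, with an orange line at each of the 9 genes and a dashed line at the median of 0.14. TXNIP lies at the far left at -5.10, ARRDC3 and ARRDC4 lie at -2.13 and -2.05, and MLXIP lies at 0.03 near the middle.

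The sensor genes did not share this pattern. MLXIP (ENSG00000175727, chromosome 12, 122078722 to 122147347, plus strand) was at 1.61, 1.31 and 1.37 FPKM in 2D and 1.42, 1.58 and 1.41 in 3D. The groups overlapped, the means were 1.43 ± 0.161 and 1.47 ± 0.0968, and the log2 change of 0.03 (SE 0.09) turned to -0.08 with median-ratio scaling and to -0.01 without 3D replicate 2 or 2D replicate 2. MLX (ENSG00000108788, chromosome 17, 42567068 to 42573239, plus strand), the shared partner of MondoA and ChREBP, was at 5.57, 5.65 and 5.47 in 2D and 7.97, 7.98 and 7.05 in 3D. It was the member that stood higher in 3D without overlap, at 1.38 times its 2D mean (log2 change 0.40, SE 0.09). The change was 0.24 with median-ratio scaling. The 3′ end of MLX overlaps PSMC3IP on the other strand, which was at 4.66 to 5.76 FPKM in 3D and 1.74 to 2.11 in 2D, and its part in the MLX value was not tested. MLXIPL, which encodes ChREBP, lay under the filter at 0.0779 to 0.167 FPKM. These are mRNA levels, and MondoA and MLX are known to be controlled chiefly by where the proteins are in the cell.

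Both glucose transporter genes were lower in 3D. SLC2A1 (ENSG00000117394, chromosome 1, 42925375 to 42959176, minus strand) had 27, 33.6 and 24.9 FPKM in the 2D libraries and 13.1, 18.8 and 16.3 in the 3D libraries, in replicate order. SLC2A3 (ENSG00000059804, chromosome 12, 7919230 to 7936275, minus strand), whose product GLUT3 has a high affinity for glucose, was at 29.9, 38.7 and 32.5 in 2D and 6.07, 17.8 and 12.6 in 3D. Neither gene overlapped between the groups, and 3D replicate 1 was the lowest library for both. SLC2A1 was 1.77-fold lower (16.1 ± 2.86 against 28.5 ± 4.5) and SLC2A3 2.78-fold lower (12.1 ± 5.85 against 33.7 ± 4.51). Without 3D replicate 1 these ratios were 1.62 and 2.22. The ratio of SLC2A3 to SLC2A1 was 1.11 to 1.31 in the 2D libraries and 0.464 to 0.945 in the 3D libraries. SLC2A1 stood on 2592 to 6803 reads per library and SLC2A3 on 1059 to 6902.

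SLC2A14 is a near-identical copy of SLC2A3, so reads of SLC2A3 could be assigned to it. It held 20 to 25 reads in a 2D library and 1 to 5 in a 3D library, and the pseudogenes SLC2A3P1, SLC2A3P2 and SLC2A3P4 held at most 8 reads in any library. SLC2A1-DT, the divergent long noncoding RNA gene at the SLC2A1 promoter, lay under the filter at 0.944 to 1.14 FPKM in 2D and 0.38 to 0.569 in 3D. ATP6V0CP4, a pseudogene on the same strand within the SLC2A1 span, was at 0.477 to 2.66 in 2D and 0.34 to 1.66 in 3D, and AC099795.1, a noncoding gene that overlaps the 5′ end of SLC2A1, was at no more than 0.338 FPKM.

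The spread among the 3D libraries was not the same for all members. 3D replicate 1 stood at 0.415 times the mean of the other 3D libraries for ARRDC3 and at 0.401 times for SLC2A3. It was also the lowest for SLC2A1, at 0.745 times, and for ARRDC2, at 0.817 times. For TXNIP it stood at 0.898 times and for ARRDC4 at 1.6 times, so the library lowest in the transporters was not lowest in this pair. Replicate 1 was also the lowest 3D library for CA9, BNIP3, ADM, VEGFA, PDK1 and ANKRD37, textbook targets of the hypoxia-inducible factors. Against the 2D mean, BNIP3 had log2 ratios of -2.60, -1.82 and -1.54 in 3D replicates 1 to 3, and SLC2A3 had -2.47, -0.92 and -1.42. TXNIP had -5.60, -5.70 and -5.23. Whether these differences among the 3D libraries are linked was not tested, with 3 libraries in the group.

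**Figure D3:**
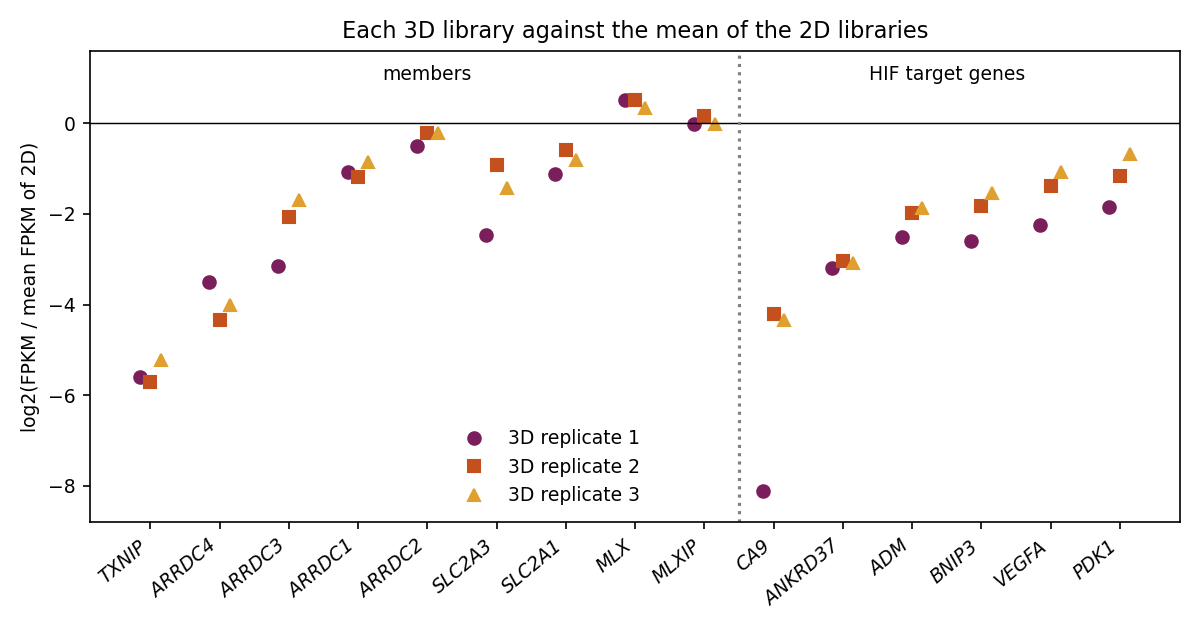
log2 ratio of each 3D library to the mean FPKM of the 2D libraries, for the 9 genes and for 6 target genes of the hypoxia-inducible factors, with a symbol and colour for each 3D replicate. Replicate 1 is the lowest for ARRDC2, ARRDC3, SLC2A1 and SLC2A3, as for the 6 target genes. It lies within or above the other replicates for TXNIP and ARRDC4.

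In 2D the order of the members by mean FPKM was TXNIP, SLC2A3, ARRDC3, SLC2A1, MLX, ARRDC4, ARRDC1, ARRDC2 and MLXIP. SLC2A3, ARRDC3 and SLC2A1 overlapped in that order and so did ARRDC1 and ARRDC2. In 3D the order was SLC2A1, SLC2A3, MLX, ARRDC3, TXNIP, ARRDC2, MLXIP, ARRDC1 and ARRDC4, where neighbours overlapped from SLC2A1 down to TXNIP, and so did MLXIP and ARRDC1. The order depends on the gene lengths used. The length behind the deposited FPKM was 14803 bases for SLC2A1 and 13034 for SLC2A3, against GENCODE 29 exon lengths of 4724 and 6159, while for ARRDC4 the lengths were 4062 and 4072. Scaled to GENCODE 29 lengths, an alternative chosen after seeing the data, SLC2A1 came second in 2D at 89.3, ahead of SLC2A3 at 71.3 and ARRDC3 at 46.4, and TXNIP stayed first at 211.5. In 3D on that scale SLC2A1 and SLC2A3 stayed first and second, at 50.4 and 25.7, and ARRDC4 stayed last at 0.289. Ratios between the groups do not depend on the length, while changes on log2(FPKM + 1) do.

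Glucose and hexose transporters beyond GLUT1 and GLUT3 were few and low. Of the 18 in this list, 8 were tested, and 4 of them were lower in 3D, 1 was higher and 3 did not pass. Over all tested genes 18.1% were lower and 33.3% higher. The median log2 change of the list was -0.31, against 0.14 over all tested genes. SLC2A13, the proton myo-inositol cotransporter, fell from 3.9 ± 0.974 to 1.48 ± 0.281 FPKM (limma adjusted p = 0.00253), and SLC2A10, a GLUT of the endomembranes, from 7.12 ± 1.4 to 4.43 ± 0.595 (adjusted p = 0.0153). SLC45A4, a member of the sucrose transporter family, was higher at 2.07 ± 0.149 against 1.41 ± 0.284 (adjusted p = 0.034). That call did not survive median-ratio scaling (0.1), nor leaving out any 1 library but 2D replicate 3 (0.0524 to 0.0976). Without 3D replicate 1 or 2D replicate 1 the list had 3 lower, and without 3D replicate 2, 3D replicate 3, 2D replicate 2 or 2D replicate 3 it had 2 lower. SLC2A4, the insulin-regulated GLUT4 gene, lay under the filter on 12 to 22 reads per library, and SLC2A2 and SLC5A1 were listed at 0 in every library. Within the SLC2A genes, SLC2A1 and SLC2A3 together made up 73.1 to 82.8% of the summed FPKM in 2D and 68.5 to 76.5% in 3D, ranges that overlap.

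**Figure D4:**
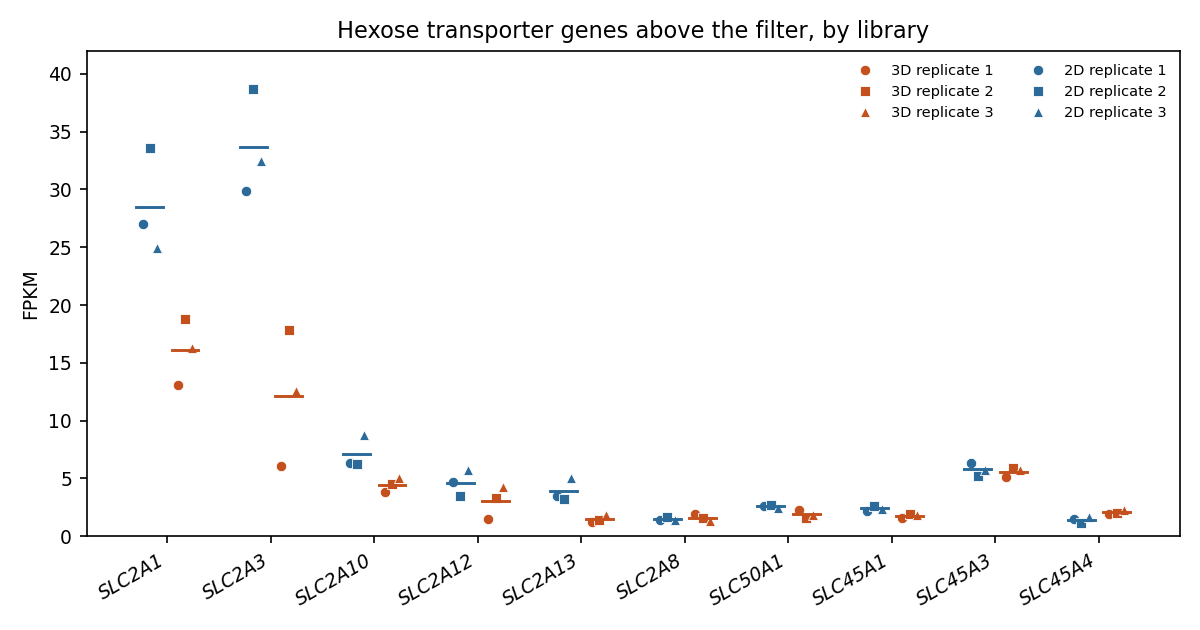
FPKM of the 10 hexose transporter genes above the filter in each library, with 2D in blue, 3D in orange, a symbol for each replicate and a line at each group mean. SLC2A1 and SLC2A3 are the highest in both groups, and SLC2A13 and SLC2A10 are lower in 3D.

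Of 18 other target genes of MondoA and ChREBP 13 were tested, and 5 were higher, 3 lower and 5 did not pass (median log2 change 0.23), beside 33.3% higher and 18.1% lower over all tested genes. HK2, the hexokinase that makes glucose 6-phosphate in many tumour cells, fell from 62.3 ± 5.8 to 19.1 ± 4.08 FPKM (limma adjusted p = 0.000426). FASN, the fatty acid synthase, rose from 69.2 ± 10 to 155.3 ± 17.6 (adjusted p = 0.000862), and PFKFB2, which sets the level of an activator of phosphofructokinase, from 0.565 ± 0.1 to 1.96 ± 0.173 (adjusted p = 0.000561). PFKFB2 passed the filter through 3D alone. PFKFB3, of the same enzyme family, was among the lower genes (8.13 ± 2.26 against 18.1 ± 1.15, adjusted p = 0.00308). Of the lipid synthesis genes, ACLY and ACACA also rose, to 73.9 ± 4.28 from 35.9 ± 7.84 and to 4.05 ± 0.626 from 1.76 ± 0.611 FPKM, while SCD and ELOVL6 did not pass. These genes have other known regulators as well, among them SREBP for the lipid genes and the hypoxia-inducible factors for HK2 and PFKFB3.

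Genes that make or use glucose 6-phosphate, its level being the signal that MondoA senses, were lower or did not pass. Of 11 in the list 5 were tested, of which 2 were lower and 3 did not pass, beside 18.1% lower over all tested genes. The lower genes were HK2 again and GPI, the isomerase that passes glucose 6-phosphate into glycolysis, at 22.3 ± 0.188 against 37.8 ± 7.22 (adjusted p = 0.0059). HK1, the ubiquitous hexokinase, stood at 15.8 ± 1.38 against 18.7 ± 0.609 and did not pass (adjusted p = 0.0802). With median-ratio scaling 3 were lower. The hexokinase genes HK3 and HKDC1 lay under the filter.

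The list of MLX partners and the MAX network joins MLX to a wider set of E-box-binding factors. In it 5 of 7 tested genes were lower in 3D and 1 was higher, with a median log2 change of -0.64. Over all tested genes 18.1% were lower and 33.3% higher. MXI1, a repressor that binds DNA with MAX, fell 11.4-fold to 0.285 ± 0.0273 FPKM (limma adjusted p = 0.000185), and passed the filter through 2D alone. MXD4 fell from 10 ± 1.1 to 4.26 ± 0.752 (adjusted p = 0.000959) and MNT, which binds both MAX and MLX, from 7.78 ± 0.749 to 4.62 ± 0.418 (adjusted p = 0.00254). MGA, another MAX partner, rose from 2.61 ± 0.532 to 4.64 ± 0.822 (adjusted p = 0.0108). Median-ratio scaling gave the same counts of 5 and 1, and without 3D replicate 3 there were 5 and 2.

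Of the 9 NEDD4-family ligase genes, whose products alpha-arrestins recruit, 6 were tested, and 3 were higher and 3 did not pass (median log2 change 0.30). WWP2 rose from 1.27 ± 0.148 to 3.07 ± 0.138 FPKM (limma adjusted p = 0.000606) and NEDD4 from 3.52 ± 0.209 to 5.74 ± 0.283 (adjusted p = 0.00186). WWP1, at 9.75 ± 1.1 against 7.3 ± 0.842 (adjusted p = 0.0336), missed the threshold after median-ratio scaling (0.165) and when any of 3D replicates 2 and 3 or 2D replicates 1 and 2 was left out (0.093 to 0.103). ITCH, the ligase most often tied to TXNIP breakdown, stood at 2.94 ± 0.52 against 2.43 ± 0.681 and did not pass (adjusted p = 0.328). The share of 3 in 6 lies near the 33.3% of all tested genes that were higher.

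Among other proteins with an arrestin fold, 2 of 6 tested genes were higher and 1 lower, beside 33.3% and 18.1% of all tested genes. ARRB1, which encodes beta-arrestin 1, rose from 2.52 ± 0.594 to 6.71 ± 1.4 FPKM (limma adjusted p = 0.00193), and VPS26A, a retromer subunit, from 3.56 ± 0.274 to 6.31 ± 0.314 (adjusted p = 0.00116). RGP1, part of an exchange factor for RAB6, fell from 15.3 ± 2.37 to 9.97 ± 0.618 (adjusted p = 0.0077). ARRB2, which encodes beta-arrestin 2, stood at 2.44 ± 0.106 against 2.86 ± 0.209 (adjusted p = 0.161). With median-ratio scaling 2 were higher and 3 lower, and without 2D replicate 2 there were 2 and 2. Without 3D replicate 3, and with voom, 3 were higher and 1 lower.

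Genes that carry GLUT proteins to and from the surface, 21 in all and all tested, were higher in 6 cases and lower in 2, and 13 did not pass (median log2 change 0.20), beside 33.3% and 18.1% of all tested genes. Leaving out any of 3D replicates 1 and 2 and 2D replicates 1 and 3 took the lower count to 1, with PRKAB2 the gene still called. The higher count was 5 without 3D replicate 1 or any single 2D replicate, and 4 without 3D replicate 2. TBC1D4, the brake on GLUT4 vesicle traffic also called AS160, rose from 5.62 ± 0.852 to 14.4 ± 0.779 FPKM (limma adjusted p = 0.000407). PRKAB2, a regulatory subunit of AMPK, the kinase that marks TXNIP for breakdown, fell from 37.1 ± 4.54 to 10.6 ± 1.4 (adjusted p = 0.000301). Of the other AMPK subunit genes, catalytic PRKAA1 rose from 9.91 ± 1.02 to 15.3 ± 0.747 (adjusted p = 0.00307), catalytic PRKAA2 fell from 9.34 ± 1.41 to 6.01 ± 1.56 (adjusted p = 0.0335), and PRKAB1 and PRKAG1 did not pass. SNX27, which recycles GLUT1 with retromer, stood at 2.84 ± 0.354 against 1.81 ± 1.06 and did not pass (adjusted p = 0.17). With median-ratio scaling 4 were higher and 2 lower.

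In the list of ESCRT proteins and alpha-arrestin cargo, 4 of 11 tested genes were higher and 4 lower. Over all tested genes 33.3% were higher and 18.1% lower. TSG101, the partner of ARRDC1, stood at 5.67 ± 0.136 FPKM and 6.41 ± 0.396 in 3D and 2D and missed the threshold (limma adjusted p = 0.182). VPS37C, an ESCRT-I subunit, fell from 4.72 ± 0.326 to 3.49 ± 0.208 (adjusted p = 0.0159). The transferrin receptor gene TFRC was higher at 14.6 ± 4.79 against 6.62 ± 1.16 (adjusted p = 0.015), or 0.0509 without 2D replicate 1. With median-ratio scaling 1 gene was higher and 5 were lower, where 3148 of all 12843 tested genes were called in each direction. Leaving out any of 3D replicates 2 and 3 and 2D replicate 1 took the higher count to 1, and it was 2 without 3D replicate 1 or 2D replicate 2. The lower count was 2 without 2D replicate 1 or 2D replicate 3. With no low-value filter no gene of the list was called higher and 2 were lower. At that setting 4458 of all 33243 tested genes were higher and 2274 lower.

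The thioredoxin genes, whose products TXNIP binds or that act with them, mostly did not pass. Of 6 in the list 5 were tested, and 1 was higher and 4 did not pass, beside 33.3% higher over all tested genes. TXN, cytosolic thioredoxin, stood at 57.6 ± 10.8 against 64.1 ± 7.47 FPKM and did not pass (limma adjusted p = 0.413). TXNRD2, mitochondrial thioredoxin reductase, was higher at 2.55 ± 0.495 FPKM, with 1.64 ± 0.0261 in 2D (adjusted p = 0.0224), but not after median-ratio scaling (0.0677) or when any library other than 3D replicate 3 was left out (0.0527 to 0.0705). TXNIP mRNA was at 1.76 to 3.16 times TXN mRNA in the 2D libraries and at 0.0424 to 0.0712 times in the 3D libraries. NLRP3, the inflammasome sensor that TXNIP can bind, lay under the filter.

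Among the subunits, controllers and targets of the hypoxia-inducible factors, 8 of 14 genes were lower and 4 higher. Over all tested genes 18.1% were lower and 33.3% higher. The 6 genes listed as targets, a choice that does not cover all known targets, were lower. CA9 stood at 1.16 ± 0.905 against 32.5 ± 5.47 FPKM (limma adjusted p = 0.00034). ADM stood at 3.44 ± 0.751 against 14.7 ± 2.77 (adjusted p = 0.000426) and ANKRD37 at 0.439 ± 0.0236 against 3.79 ± 0.964 (adjusted p = 0.00036). EGLN3, listed among the controllers, did not pass, at 9.77 ± 4.63 against 9.38 ± 1.54 (adjusted p = 0.939). ANKRD37 passed the filter through 2D alone. HIF1A itself rose from 35.9 ± 3.3 to 63.4 ± 3.08 (adjusted p = 0.000946). With median-ratio scaling the list had 8 lower and 3 higher. Dropping 2D replicate 2, or instead either of 3D replicates 1 and 2, gave those same counts. This list was drawn up with the fall of hypoxia targets in these libraries known and is not independent evidence of its direction. The part of oxygen supply in the change of SLC2A1 and SLC2A3 was not tested.

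**Figure D5:**
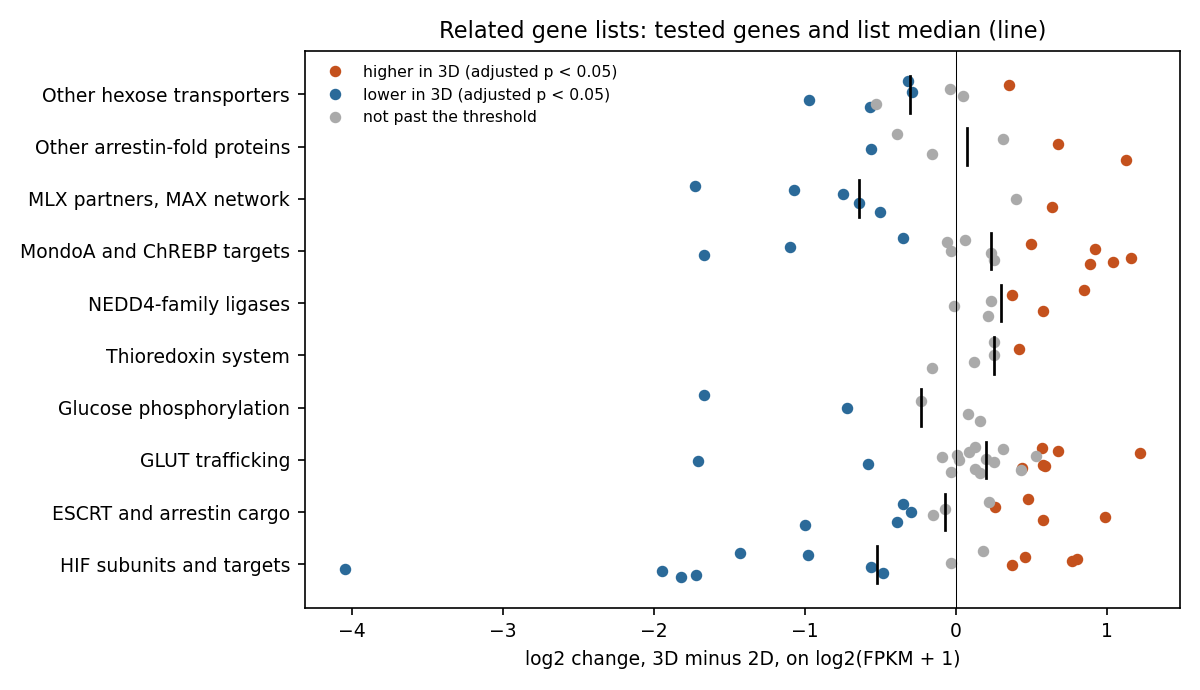
log2 change, 3D minus 2D, on log2(FPKM + 1), of the tested genes of 10 related lists, 1 point a gene, with a black line at each list's median. Orange points are higher in 3D and blue points lower at a limma adjusted p under 0.05, and grey points did not pass. In the MAX network 5 of 7 points are blue, and in the NEDD4 family 3 of 6 are orange. Over all tested genes 18.1% were lower and 33.3% higher.

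The 5 genes most like TXNIP over the 6 libraries, by Pearson correlation on log2(FPKM + 1) among 5856 named genes whose mean reached 5 FPKM in 1 group or both, were RGMB, TMEM59, PPP1R2, GJA3 and LTBP4 (r of 0.9992 to 0.9969). Their changes were far smaller than that of TXNIP, from 1.85-fold lower for TMEM59 to 3.73-fold lower for LTBP4. RGMB stood at 9.87, 9.23 and 10.1 FPKM in 2D and 4.98, 4.75 and 5.09 in 3D, with 2D replicate 3 highest and 2D replicate 2 lowest, as for TXNIP. ARRDC4 (r = 0.996) and ARRDC1 (0.988) lay under the minimum of that rule. ARRDC3 reached 0.951, SLC2A1 0.877, SLC2A3 0.860, ARRDC2 0.597, MLXIP -0.203 and MLX -0.977. These correlations over 6 libraries mostly follow the split between the groups, and 54 of the 5856 genes reached at least 0.99.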

How the data were processed

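RNA enriched for poly(A) was sequenced in 3 libraries from scaffold culture and 3 from flat culture, per the labels' protocols. The authors deposited FPKM values for 62703 gene IDs. FastQC, fastp, HISAT2, StringTie, edgeR and the build GRCh38 are named in the submitters' processing notes; the sources used here do not give the annotation, the counting or its strandedness. Members and lists were chosen with earlier results of these data known.

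Genes with at least 1 FPKM in at least 3 libraries (12843) were compared on log2(FPKM + 1) with limma 3.58.1 (trend and robust, statmod 1.5.0, R 4.3.3), 2-sided, adjusted by Benjamini-Hochberg over all tested genes at 0.05. The fit was also run on simulated data in which far fewer genes changed than here, so that run does not bear on these calls. With 3 libraries against 3 the fit has few degrees of freedom. Reads were worked out by the shortest length, GENCODE 29's tried first and then up to 30000 bases, that gave whole reads within 0.02 in every library. It was found for 12473 tested genes and for 0 of 200 rows that mixed genes. Chi-square per degree of freedom between replicates was 15.1 to 35.1, above sampling noise. From each list the 3 called genes with the smallest adjusted p were named, with genes that overlap or copy a member; other genes of the lists were named for their known roles after their values were seen. Of the IDs, 62625 were in the name table and 58279 in GENCODE 29. Alternatives were another pseudocount, other filters, median-ratio scaling, a replicate block, voom and leaving out each library. Promoters came from RefSeq (GRCh38.p14).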

Additional observations from a re-analysis of the deposited data

How the results depend on the processing

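The 9 genes kept the sign of their change under every setting run except MLXIP, which was near 0. ARRDC1, ARRDC4, TXNIP, MLX and MLXIP moved by more than the spread between replicates under another pseudocount, voom (chosen after seeing the data) or median-ratio scaling in 9 of 50 refits, and in 0 of 54 that left out a library. Leaving out 1 of 3 libraries can hardly move a group mean by more than that spread, so the 0 of 54 is not read as stability. In those refits the log2 change of SLC2A3 ran from -1.82 to -1.11 (main fit -1.50) and that of ARRDC3 from -2.39 to -1.77 (main fit -2.13). Over all genes 4272 were higher and 2328 lower, against 3148 and 3148 with median-ratio scaling, and 2134 and 1319 with a minimum of 5 FPKM, where fewer genes were tested. Leaving out each library gave 3475 to 4065 higher and 1947 to 2182 lower. Of the 95 related genes tested, 27 were higher and 29 lower, beside 33.3% and 18.1% of all tested genes. There were 17 higher with no low-value filter and 17 with median-ratio scaling, and 18 lower with a minimum of 5 FPKM. Leaving out each library gave 17 (without 3D replicate 2) to 24 higher and 24 to 27 lower. The cause of these shifts, other than fewer genes tested, was not tested. The related genes named by smallest adjusted p were followed over the refits. SLC45A4, WWP1, TXNRD2 and TFRC among them lost their call in 15 refits that left out a library and 7 others. Genes named for their known roles were not in that count. One of those, PRKAA2, lost its call without 3D replicate 1, 3D replicate 2, 2D replicate 1 or 2D replicate 3. With the replicate number as a replicate block, 4291 genes were higher and 2382 lower, and 28 and 27 related genes. Deviations of same-numbered libraries correlated at 0.0837, -0.0172 and 0.184, and those of unlike-numbered libraries at -0.172 to 0.104. Deviations from a group's own mean constrain each other, so these values cannot settle whether the numbers are pairs. The main fit used no pairing. Depth limits ARRDC4 in 3D most, at 12 to 21 reads.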
